A study of Mus musculus with 12 samples.

Results

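The genes of the tricarboxylic acid (TCA) cycle, of anaplerosis and of the malate-aspartate shuttle were examined in RNA-seq of the left ventricle from 16-week-old mice, as 31 genes chosen by name from a table of 26921 gene identifiers. WT mice (n = 6) were Gch1 flox/flox. cmGch1 KO mice (n = 6) were Gch1 flox/flox and carried in addition α-MHC-Cre+/-, a Cre recombinase that the α-myosin heavy chain promoter expresses in cardiomyocytes. All mice of both groups therefore had floxed Gch1 alleles, and the controls had no Cre, while the non-muscle cells of the ventricle lie outside the reach of that promoter. Gch1 encodes GTP cyclohydrolase I, the enzyme that starts the synthesis of tetrahydrobiopterin (BH4). Each gene was asked whether its expression differed between the genotypes, and the cytosolic and mitochondrial forms of an enzyme were compared within the same libraries.

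In the TCA cycle, acetyl-CoA joins oxaloacetate to form citrate, which is oxidised in the mitochondrial matrix back to oxaloacetate while NADH, FADH2 and a nucleoside triphosphate are made. Cardiomyocytes draw most of their ATP from the oxidation that this cycle feeds. Several reactions have a second enzyme in the cytosol, encoded by a separate gene, and the malate-aspartate shuttle joins the compartments by moving reducing equivalents of cytosolic NADH into the matrix. Anaplerosis replaces cycle intermediates that leave for other pathways, for example through the carboxylation of pyruvate.

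Expression is given as cpm, which is a gene's share of the reads counted in a library, after scaling by the TMM factors of edgeR. The 11225 genes with a cpm over 3 in at least 6 libraries were tested, and all 31 genes were among them, the lowest count of any in a library being 59, of Ogdhl. Libraries held between 19921398 and 37917806 counts. Gch1 lay between 9.32 and 12.2 cpm in WT and between 3.94 and 6.35 cpm in cmGch1 KO libraries. cmGch1 KO replicates 2 and 3 stood apart, with Xist at 87.1 and 99.6 cpm, against at most 0.235 cpm elsewhere, Y-linked genes (Uty, Ddx3y, Kdm5d and Eif2s3y) at a sum of 0 cpm, against 168 to 193 cpm in the other 10 libraries, and 14.9% and 16.1% of counts on mitochondrially encoded genes, against 18.3% to 22.9%. High Xist without Y-linked counts is the pattern of female tissue, while the labels give no sex. All 6 WT libraries had the other pattern, so sex-linked expression was not balanced between the genotypes and was partly confounded with them. Defining markers of cardiomyocytes, endothelial cells, fibroblasts, macrophages, mural cells, erythroid cells and atrial tissue were detected, and no marker was at 0 in all libraries. The liver markers summed to at most 1.63 cpm apart from 36.6 cpm in WT replicate 2, and the adipocyte markers to at most 9.55 cpm.

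Most of the 31 genes had slightly lower fitted levels in cmGch1 KO than in WT hearts. These genes were chosen with earlier results of these data known, so their shares beside all tested genes describe them and test nothing. The log2 fold change was below 0 for 28 genes and above 0 for Mdh2, Me2 and Pck2, where 53.3% of all tested genes lay below 0 and 46.7% above it. With scaling by library size alone 23 of the 31 were below 0, and Aco1, Idh3a, Dld, Mdh1 and Got1 moved above it. The median log2 fold change was -0.13, against -0.0095 over all tested genes, and 27 of the 28 lower genes lay between -0.3 and 0, the exception being Ogdhl. At an FDR under 0.05 the aspartate-glutamate carrier gene Slc25a13 was called lower and no gene was called higher, where 0.445% and 0.677% of all tested genes were called lower and higher (quasi-likelihood test of edgeR, adjusted by the Benjamini-Hochberg method over all tested genes). In a tissue sample, fewer cells of a type and less RNA per cell cannot be told apart.

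At an unadjusted p under 0.05, 11 of the 31 genes (35.5%) were lower, against 4.51% of all tested genes, and 1 gene (3.23%), Me2, was higher, against 7.01%. The 11 were Idh3b, Idh3g, Ogdh, Dlst, Suclg1, Suclg2, Fh1, Slc25a12, Slc25a13, Pcx and Me3, and their mean levels in cmGch1 KO hearts were 82.5% to 92.3% of WT. The count was 7 without WT replicate 5, 7 without WT replicate 6, 6 without cmGch1 KO replicate 3 and between 8 and 13 when each of the others was left out. Without both high-Xist libraries it was 4, against 2.79% of all tested genes in that fit, with a median log2 fold change of -0.12 and 27 of 31 genes below 0. With scaling by library size alone it was 2, against 2.1%, with a median of -0.06. For 2 of the 31 genes, Dlst and Slc25a13, every cmGch1 KO library lay below every WT library (6.45%, against 0.802% of all tested genes), and no gene lay wholly above, as 1.07% of tested genes did.

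**Figure D1:**
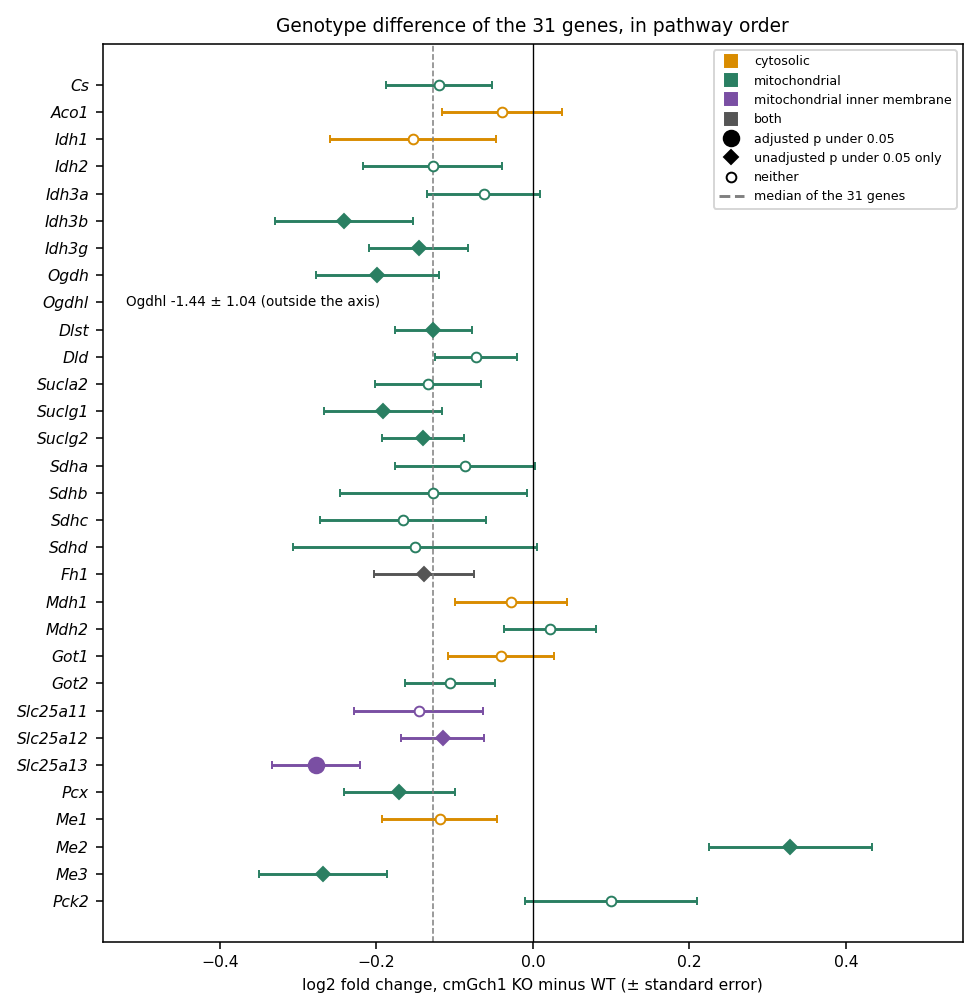
Genotype differences (x axis, log2 fold change, cmGch1 KO minus WT) for each of the 31 genes (y axis, in the order of the pathway), with bars of 1 standard error, filled symbols for an unadjusted p under 0.05, a large circle for an adjusted p under 0.05, and colour for the compartment of the protein. The points gather near the dashed line at their median of -0.13, Slc25a13 and Me3 lie furthest below it on the axis, Me2 lies at 0.33, and Ogdhl, at -1.44, is given in words.

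The size of the shift differed between libraries. The median deviation of the 31 genes from their WT mean, on the log2 scale, ran from -0.0395 to 0.0493 in WT libraries. Among cmGch1 KO libraries it was 0.00087 for replicate 1, while the other 5 had values from -0.185 to -0.0899, so that cmGch1 KO replicate 1 lay within the WT range and the others below it. The summed level of the 31 genes was 19800 to 21000 cpm in WT and 18000 to 19500 cpm in cmGch1 KO libraries, with no overlap.

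Marker levels moved with genotype too. The 8 cardiomyocyte markers summed to between 70000 and 75600 cpm in WT (median 71800) and between 63800 and 66600 cpm in cmGch1 KO libraries (median 64900), without overlap (p = 0.00216 by a two-sided exact permutation test). Of the 8, 7 were lower and none passed an unadjusted p under 0.05. Taken as a percentage of that sum, the 31 genes came to 26.2% to 28.7% in WT (median 28.1%) and 27.7% to 29.4% in cmGch1 KO libraries (median 28.3%), which overlapped. The 5 macrophage markers summed to 79.9 to 100 cpm in WT and 101 to 125 cpm in cmGch1 KO libraries (p = 0.00216 by the same exact test). All 5 were higher at an unadjusted p under 0.05, where 7.01% of all tested genes were, and none at an FDR under 0.05. Marker lists, too, were chosen with earlier results of these data known. The summed markers of endothelial cells, fibroblasts, mural cells, erythroid cells, atrial tissue, adipocytes and liver overlapped between the genotypes, with exact permutation p values between 0.18 and 0.911. Of the 5 mural markers, Acta2 was called higher (log2 fold change 0.66, edgeR adjusted p = 0.00672). It lay between 113 and 145 cpm in WT and between 163 and 243 cpm in cmGch1 KO libraries. In the same list 3 markers were lower, Myh11 among them (-0.24), and none of these was called. The part of these markers in the differences below was not tested.

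**Figure D2:**
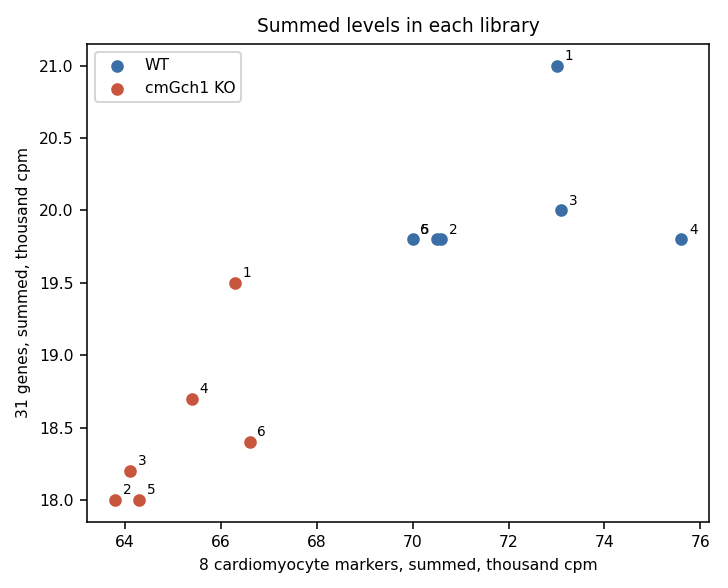
The summed cpm of the 31 genes (y axis, in units of 1000) against the summed cpm of the 8 cardiomyocyte markers (x axis, in units of 1000), 1 point per library, numbered by replicate and coloured by genotype, with axes that do not start at 0. The 6 cmGch1 KO libraries lie below and to the left of the 6 WT libraries on both axes.

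The genes spanned a wide range of expression. Per kilobase of exon, the highest mean levels in WT were those of the cytosolic malate dehydrogenase Mdh1 (766 cpm per kb), the mitochondrial isocitrate dehydrogenase Idh2 (703 cpm per kb) and the 2-oxoglutarate dehydrogenase Ogdh (426 cpm per kb). The lowest mean levels per kilobase were those of the malic enzymes Me3 (6.1 cpm per kb) and Me2 (1.16 cpm per kb) and of the mitochondrial phosphoenolpyruvate carboxykinase Pck2 (1.43 cpm per kb). The place of Me3 rests on its union of exons of 14624 bases. Without division by length its WT mean was 89.2 cpm, above Idh1 (53.4 cpm), Aco1 (38.2 cpm) and Pcx (36.9 cpm). Pyruvate carboxylase, Pcx, was at 7.77 cpm per kb, and Aco1 at 8.5 cpm per kb. The WT mean of Ogdhl, 8.95 cpm per kb, rested on WT replicates 2 and 6. It was 4.65 cpm per kb without WT replicate 2, and the other 4 WT libraries lay between 0.639 and 1.37 cpm per kb, below the mean of Me3.

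Cs encodes citrate synthase, which joins acetyl-CoA to oxaloacetate. WT hearts averaged 1280 ± 78.1 cpm and cmGch1 KO hearts 1180 ± 83.7 cpm (SD, n = 6 each), and the log2 fold change was -0.12 (95% confidence interval -0.27 to 0.03, edgeR adjusted p = 0.555). Aco1, the cytosolic aconitase that also serves as an iron regulatory protein, was at 38.2 ± 2.07 and 37.2 ± 4 cpm (SD, n = 6 each), with overlapping groups.

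Isocitrate dehydrogenase occurs in an NAD-dependent form of the matrix, with the catalytic subunit Idh3a and the subunits Idh3b and Idh3g, and in NADP-dependent forms of the cytosol (Idh1) and the matrix (Idh2). Idh3b was lowest at 816, had a median of 899 and was highest at 1030 cpm in WT libraries, against 698, 764 and 920 cpm in cmGch1 KO libraries. Of the 6 cmGch1 KO libraries, 5 lay below the lowest WT library. The log2 fold change was -0.24 (standard error 0.0883, exact permutation p = 0.0303, edgeR adjusted p = 0.267). Idh3g, which lies on the X chromosome, ran from 450 through a median of 475 to 520 cpm in WT and from 399 through 433 to 482 cpm in cmGch1 KO libraries, with 4 of the 6 below the WT range (log2 fold change -0.15, standard error 0.0629, exact permutation p = 0.0216, edgeR adjusted p = 0.376). The high-Xist libraries, at 440 and 425 cpm, were inside the range of the other cmGch1 KO libraries. For Idh3a the groups overlapped, at 683 ± 52.3 and 654 ± 50.8 cpm (SD, n = 6 each; edgeR adjusted p = 0.84). The NADP-dependent forms overlapped as well, Idh1 at 53.4 ± 5.67 and 48 ± 7.6 cpm and Idh2 at 1820 ± 236 and 1660 ± 131 cpm (SD, n = 6 each).

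The 2-oxoglutarate dehydrogenase complex turns 2-oxoglutarate into succinyl-CoA and is built from the dehydrogenase Ogdh, the succinyltransferase Dlst and the dihydrolipoamide dehydrogenase Dld, the last shared with other complexes of the matrix. Dlst lay between 664 and 692 cpm in WT (median 686) and between 601 and 640 cpm in cmGch1 KO libraries (median 629). Its groups did not overlap and its spread was small, with a coefficient of variation of 1.49% in WT and 2.3% in cmGch1 KO libraries. The log2 fold change was -0.13 (standard error 0.0495), with p = 0.00216 by the exact permutation test (two-sided, the smallest p that 6 libraries against 6 allow) and an edgeR adjusted p of 0.308. The Wald test of DESeq2 in place of edgeR gave an adjusted p = 0.00175 at the same fold change, whereas scaling by library size alone gave a log2 fold change of -0.05 and an edgeR adjusted p of 0.769.

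Ogdh lay between 2090 and 2610 cpm in WT (median 2300) and between 1860 and 2260 cpm in cmGch1 KO libraries (median 1960). All 6 cmGch1 KO libraries were below the WT median and 4 were below the WT range (log2 fold change -0.20, standard error 0.0786, exact permutation p = 0.0281, edgeR adjusted p = 0.317). Dld averaged 561 ± 7.78 cpm among WT and 533 ± 22.9 cpm among cmGch1 KO hearts (SD, n = 6 each), with 4 of 6 cmGch1 KO libraries below the WT range and a log2 fold change of -0.07 (edgeR adjusted p = 0.69, exact permutation p = 0.0173).

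Ogdhl, a paralogue of Ogdh best known from brain, varied far more between libraries than with genotype. It was at 126 cpm in WT replicate 2, 77.3 cpm in WT replicate 6 and 59 cpm in cmGch1 KO replicate 6, and at 2.65, 5.28, 5.7 and 5.49 cpm in WT replicates 1, 3, 4 and 5 and 6.45, 2.74, 2.72, 4.56 and 4.89 cpm in cmGch1 KO replicates 1 to 5. The highest library thus stood 47.6-fold above the lowest, with libraries of either genotype in both ranges. The log2 fold change was -1.44 with a standard error of 1.04 (edgeR adjusted p = 0.69), and across the alternatives it ran from -3.12 to -0.48. Ogdhl lies on chromosome 14 of GRCm38, from 32322019 to 32348151 on the plus strand, 14.8 Mb from Gch1.

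Sorted by level, the 12 libraries of Ogdhl left a gap of 3.17 on the log2 scale between 9 low and 3 high values. Among all tested genes, taking gaps with at least 3 libraries on either side, it ranked second after Gm12033, at 6.04 (a gene named here after its value was seen). That minimum of 3 equals the number of high values of Ogdhl, and the ranking was not among the planned comparisons. The tested genes beside Ogdhl, Timm23, Parg, Ercc6 and 3425401B19Rik, had gaps between 0.0717 and 0.408, none near the size of that of Ogdhl. Among the 31 genes the next largest gap was 0.258, of Sdhd.

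**Figure D3:**
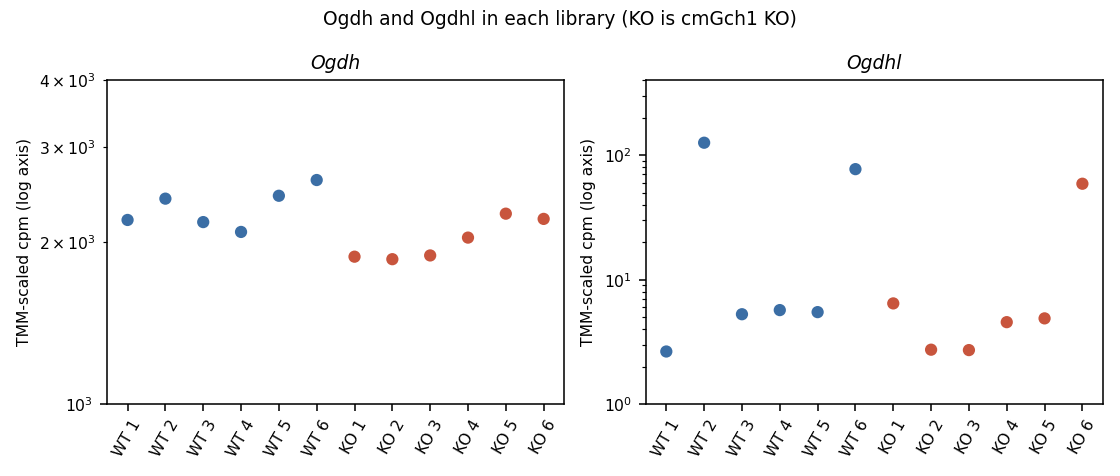
The level of Ogdh (left) and Ogdhl (right) in each of the 12 libraries (x axis), in TMM-scaled cpm on a log axis, coloured by genotype. Ogdh stays between 1860 and 2610 cpm, while Ogdhl is between 2.65 and 6.45 cpm in 9 libraries and at 59, 77.3 and 126 cpm in cmGch1 KO replicate 6, WT replicate 6 and WT replicate 2.

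Succinyl-CoA ligase makes succinate and a nucleoside triphosphate. Its α subunit, Suclg1, pairs with either the ADP-specific β subunit Sucla2 or the GDP-specific β subunit Suclg2. Suclg2 ran from 208 through a median of 218 to 232 cpm in WT and from 189 through 197 to 210 cpm in cmGch1 KO libraries. Of the latter 5 lay below the WT range (log2 fold change -0.14, standard error 0.0524, edgeR adjusted p = 0.274, exact permutation p = 0.00433). By the Wald test of DESeq2 its adjusted p was 0.041. Suclg1 ran from 321 through 348 to 394 cpm in WT and from 285 through 305 to 360 cpm in cmGch1 KO libraries, again with 5 of 6 below the WT range (log2 fold change -0.19, standard error 0.0754, exact permutation p = 0.0281, edgeR adjusted p = 0.314). Sucla2, at 550 ± 28.7 and 501 ± 41.3 cpm (SD, n = 6 each), had a log2 fold change of -0.13 and an edgeR adjusted p of 0.49.

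Succinate dehydrogenase, complex II of the respiratory chain, consists of the catalytic subunits Sdha and Sdhb and the membrane anchors Sdhc and Sdhd. Its log2 fold changes lay between -0.17 (Sdhc) and -0.09 (Sdha), none with an unadjusted p under 0.05. The libraries spread widely: the coefficient of variation reached 20.8% in WT and 22.9% in cmGch1 KO libraries for Sdhd, which was at 656 cpm in cmGch1 KO replicate 1 against 381 to 478 cpm in the other 5. Sdhc showed the same library on top, at 622 cpm against 427 to 473 cpm. In WT, Sdhd was at 604, 571 and 621 cpm in replicates 1, 3 and 4, against 392 to 445 cpm in the others. Idh3b (1030, 954 and 1030 against 816 to 843 cpm) and Suclg1 (394, 361 and 389 against 321 to 334 cpm) split these libraries the same way. Sdha split them the opposite way, at 1370, 1560 and 1510 against 1660 to 1750 cpm. The part of this split in the genotype differences was not tested. The 95% confidence interval of the log2 fold change, -0.49 to 0.18 for Sdhd and -0.28 to 0.11 for Sdha, held both 0 and the median of the 31 genes.

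Fh1, the fumarase of both matrix and cytosol, which hydrates fumarate to malate, ran from 459 through a median of 489 to 535 cpm in WT and from 423 through 435 to 507 cpm in cmGch1 KO libraries. Of the latter 5 lay below the WT range (log2 fold change -0.14, standard error 0.064, exact permutation p = 0.0281, edgeR adjusted p = 0.425). The malate dehydrogenases, which interconvert malate and oxaloacetate, stayed closest to 0. Mdh1 of the cytosol was at 1970 ± 134 and 1930 ± 149 cpm and Mdh2 of the matrix at 1120 ± 51.8 and 1130 ± 53.1 cpm (SD, n = 6 each), and the 95% confidence interval of the log2 fold change ran from -0.18 to 0.13 for Mdh1 and from -0.10 to 0.15 for Mdh2.

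**Figure D4:**
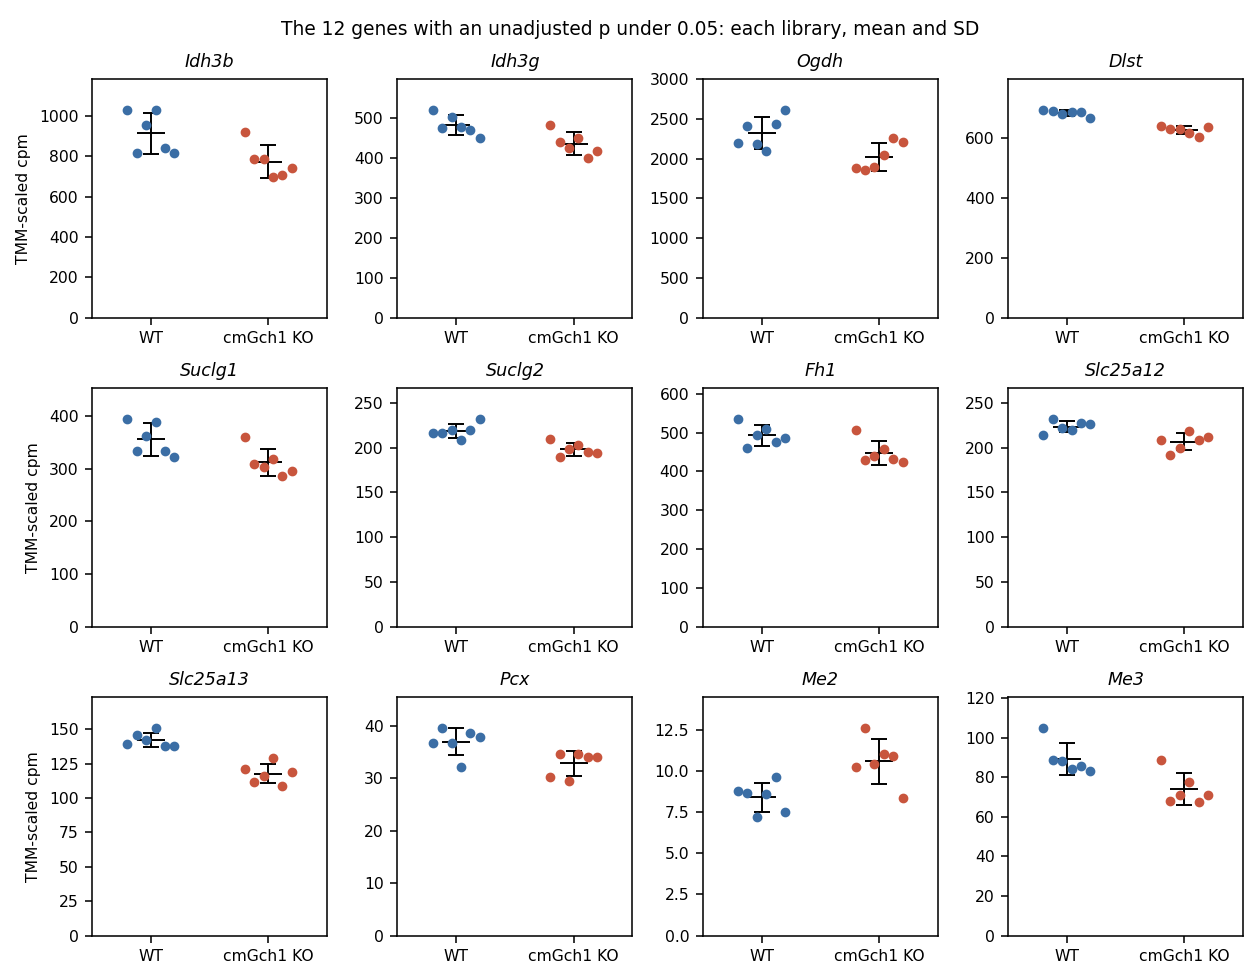
The level in each library, in TMM-scaled cpm (y axes from 0), of the 12 genes with an unadjusted p under 0.05, by genotype (x axis), with the mean and SD in black. The cmGch1 KO points of Dlst and Slc25a13 lie wholly below the WT points, 9 further genes are lower with overlap, and Me2 is higher in 5 of 6 cmGch1 KO libraries than in any WT library.

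In the malate-aspartate shuttle, Mdh1 and Got1 work in the cytosol and Mdh2 and Got2 in the matrix, and the exchange across the inner membrane is carried out by the oxoglutarate-malate carrier Slc25a11 and the aspartate-glutamate carriers Slc25a12 (aralar) and Slc25a13 (citrin). At an unadjusted p under 0.05, 2 of the 3 carriers and none of the 4 enzymes were lower, where 4.51% of all tested genes were. The difference between carriers and enzymes was not tested. Slc25a13 lay between 138 and 151 cpm in WT (median 140) and between 109 and 129 cpm in cmGch1 KO libraries (median 117). The groups did not overlap. The cmGch1 KO mean was 82.5% of the WT mean, or -0.28 as a log2 fold change (standard error 0.0566, 95% confidence interval -0.40 to -0.16, edgeR adjusted p = 0.0281, exact permutation p = 0.00216). The gene spans bases 6041218 to 6217173 of chromosome 6 in GENCODE M21 (GRCm38), minus strand.

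The call of Slc25a13 was close to the threshold, while its direction was the same in all 23 alternatives, with log2 fold changes from -0.31 to -0.20. The adjusted p rose to 0.0683, 0.0807, 0.075 and 0.0636 without WT replicates 2, 3, 4 and 5, to 0.0599, 0.0625 and 0.0541 without cmGch1 KO replicates 2, 3 and 5, to 0.188 without both high-Xist libraries, to 0.126 with sex-linked expression as a covariate, to 0.11 with scaling by library size alone and to 0.0799 without a filter on low counts.

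Slc25a12, the aspartate-glutamate carrier known from brain, heart and skeletal muscle, ran from 214 through a median of 224 to 232 cpm in WT and from 192 through 208 to 219 cpm in cmGch1 KO libraries. Of the latter 5 lay below the WT range (log2 fold change -0.12, standard error 0.053, edgeR adjusted p = 0.428, exact permutation p = 0.00433). Slc25a11 was at 485 ± 45.4 and 438 ± 45.4 cpm (SD, n = 6 each; log2 fold change -0.15, edgeR adjusted p = 0.553), with cmGch1 KO replicate 1 at 529 cpm against 411 to 435 cpm in the other 5. Of the aspartate aminotransferases, Got2 of the matrix was at 1040 ± 41.7 and 962 ± 46.7 cpm (SD, n = 6 each; log2 fold change -0.11, edgeR adjusted p = 0.54, exact permutation p = 0.00866), with 4 of 6 cmGch1 KO libraries below the WT range, and Got1 of the cytosol at 782 ± 39.6 and 760 ± 61.3 cpm (SD, n = 6 each), with overlap.

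Because the aspartate-glutamate carriers were the pair of isoforms whose ratio separated the genotypes (below), the 250 bases before their RefSeq start sites are shown, 5′ to 3′ on the strand of the gene in GRCm38.p6, in lower case throughout since neither holds a match to the motifs searched. They stand at chr6:6217174-6217423 for Slc25a13 and at chr2:71367756-71368005 for Slc25a12, both on the minus strand.
Slc25a13: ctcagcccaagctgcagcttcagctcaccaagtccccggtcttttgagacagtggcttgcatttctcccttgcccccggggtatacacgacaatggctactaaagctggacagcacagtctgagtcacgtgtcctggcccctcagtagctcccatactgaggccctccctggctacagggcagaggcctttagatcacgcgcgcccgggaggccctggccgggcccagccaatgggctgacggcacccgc
Slc25a12: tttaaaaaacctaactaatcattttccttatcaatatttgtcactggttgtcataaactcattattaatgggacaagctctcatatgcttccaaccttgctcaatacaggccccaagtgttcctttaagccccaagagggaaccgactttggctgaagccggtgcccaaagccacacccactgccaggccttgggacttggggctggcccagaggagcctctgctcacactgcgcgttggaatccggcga

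RefSeq promoters, from 250 bases before to 50 bases after the start, were found for 28 of the 31 genes. The 28 genes had 36 promoters, and a gene was counted if any of them held the motif, whereas the overall shares are of promoters. TCAAGGTCA, the response element of the estrogen-related receptors, was present on either strand in 1 of the 28 genes (Sdhd) and in 0.423% of 32851 promoters. TGATGCAA, a composite C/EBP-ATF element, was present in 1 of the 28 (Got1) and in 0.895% of all promoters. Taken as 1 promoter per gene, the 28 genes had a median of 20 CpG dinucleotides in 300 bases, against 7 over all promoters. Their median GC content was 61.5%, against 52.7%. All promoters were not limited to those of tested genes, so whether other expressed genes share these values was not examined.

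Pairs of related genes, among them cytosolic and mitochondrial forms, were next compared as ratios within each library. The ratios, as log2 of the counts per exon length, do not depend on the scaling between libraries. Of 10 pairs, 2 differed between the genotypes after Benjamini-Hochberg adjustment of exact permutation tests. They were the carriers Slc25a12 and Slc25a13, both of the inner membrane, and the malic enzymes Me1 (cytosolic) and Me2 (mitochondrial). The ratio of Slc25a12 to Slc25a13 was -0.30 ± 0.0649 in WT and -0.14 ± 0.0689 in cmGch1 KO hearts (SD, n = 6 each), a difference of 0.16 (standard error 0.0386, exact permutation p = 0.00216, adjusted p = 0.0216). WT libraries lay between -0.41 and -0.24 and cmGch1 KO libraries between -0.19 and -0.0073, without overlap. As a fold, Slc25a12 per length was 0.812 of Slc25a13 in WT and 0.908 in cmGch1 KO hearts, a level that rests on the union of annotated exons of 7342 and 3798 bases, whereas the genotype difference does not. The difference was between 0.14 and 0.18, with an adjusted p under 0.05, when each library was left out in turn.

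The ratio of the cytosolic malic enzyme Me1 to the mitochondrial Me2 was 5.16 ± 0.137 in WT and 4.70 ± 0.25 in cmGch1 KO hearts (SD, n = 6 each). The difference was -0.46 (standard error 0.116, exact permutation p = 0.00433, adjusted p = 0.0216), and the 35.6-fold excess of Me1 per length in WT was 26-fold in cmGch1 KO hearts. The groups overlapped slightly, from 4.96 to 5.37 and from 4.36 to 5.0. Without WT replicate 3 the adjusted p was 0.0541, at a difference of -0.41.

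None of the 7 other pairs given here differed at an adjusted p under 0.05. Per length, Idh1 stood at 0.0275 of Idh2 in WT and 0.0268 in cmGch1 KO hearts (difference on the log2 scale -0.04, standard error 0.134, exact permutation adjusted p = 0.849). Mdh1 stood at 2.44 and 2.36 times Mdh2 (-0.05, standard error 0.0337, exact permutation adjusted p = 0.379) and Got1 at 1.43 and 1.5 times Got2 (0.06, standard error 0.0779, exact permutation adjusted p = 0.64). Per length, the cytosolic form was thus the higher for malate dehydrogenase and aspartate aminotransferase in both genotypes. The mitochondrial form was the higher for the NADP-dependent isocitrate dehydrogenases. These levels rest on the union of annotated exons, of 2539 bases for Got1 and 4824 for Got2. In cpm, Got2 was above Got1, at 1040 against 782 in WT and 962 against 760 in cmGch1 KO hearts. The order within the other enzymes was the same in cpm.

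The remaining pairs compared forms within the matrix or with a further malic enzyme. Per length, Me1 stood at 6.75 times Me3 in WT and 7.46 times in cmGch1 KO hearts (exact permutation adjusted p = 0.224). In cpm, the WT means were 158 for Me1 and 89.2 for Me3. Sucla2 stood at 2.92 times Suclg2 in both (difference 0.0044, standard error 0.0457, exact permutation adjusted p = 0.924). Idh2 stood at 5.2 and 4.99 times Idh3a (exact permutation adjusted p = 0.706). Ogdh stood at 138 and 243 times Ogdhl, as geometric means over libraries with a log2 ratio from 3.86 to 9.30 (exact permutation adjusted p = 0.64). By compartment, the median log2 fold change of the 5 cytosolic genes was -0.04 and none had an unadjusted p under 0.05. That of the 22 mitochondrial genes was -0.13, with 8 lower and 1 higher at that p, and that of the 3 inner membrane carriers -0.15, with 2 lower. Over all tested genes, 4.51% were lower and 7.01% higher at that p. The difference between compartments was not tested as such.

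**Figure D5:**
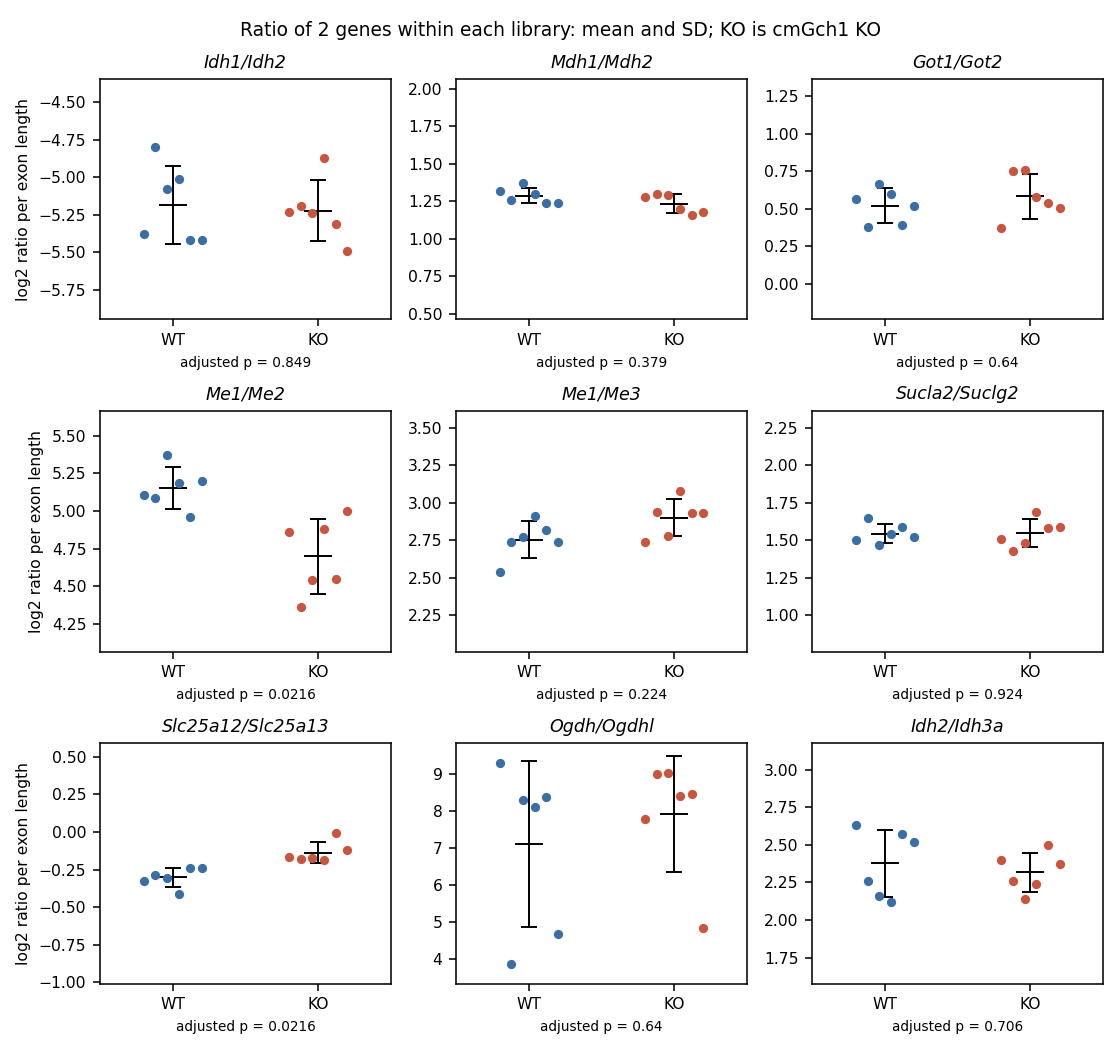
For each of 9 pairs, the log2 ratio of the genes per exon length in each library (y axis) by genotype (x axis, KO for cmGch1 KO), with the mean and SD in black and the adjusted p of the exact permutation test below each panel; the axes span at least 1.6 log2 units and do not start at 0. The groups separate for Slc25a12/Slc25a13, almost separate for Me1/Me2 and overlap in the other 7 panels, and Ogdh/Ogdhl spreads by over 5 units.

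The log2 fold changes of Pcx, Me1 and Me3 lay below 0 and those of Me2 and Pck2 above it. Pcx, which carboxylates pyruvate to oxaloacetate, ran from 32.2 through a median of 37.3 to 39.6 cpm in WT and from 29.4 through 34.1 to 34.6 cpm in cmGch1 KO libraries, with 2 of 6 below the WT range (log2 fold change -0.17, standard error 0.0709, exact permutation p = 0.0152, edgeR adjusted p = 0.346). The malic enzymes interconvert malate and pyruvate. Me3, a mitochondrial NADP-dependent form, ran from 83.1 through 86.9 to 105 cpm in WT and from 67.7 through 71.2 to 89 cpm in cmGch1 KO libraries. Of the latter 5 lay below the WT range (log2 fold change -0.27, standard error 0.0818, exact permutation p = 0.013, edgeR adjusted p = 0.167). The highest value of Me3 in either genotype was that of replicate 1, and without cmGch1 KO replicate 1 its log2 fold change was -0.33 with an edgeR adjusted p of 0.033.

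Me2, the mitochondrial NAD-dependent malic enzyme, had the highest log2 fold change of the 31. It ran from 7.22 through a median of 8.61 to 9.65 cpm in WT and from 8.37 through 10.7 to 12.6 cpm in cmGch1 KO libraries, and 5 of 6 cmGch1 KO libraries lay above the WT range. The log2 fold change was 0.33 (standard error 0.104, edgeR adjusted p = 0.191, exact permutation p = 0.0108), at a depth of 163 to 364 counts per library. Me1 was at 158 ± 6.91 and 145 ± 16.1 cpm (SD, n = 6 each; log2 fold change -0.12, edgeR adjusted p = 0.608) and Pck2, which makes phosphoenolpyruvate from oxaloacetate, at 11.2 ± 1.24 and 12 ± 1.83 cpm (SD, n = 6 each; edgeR adjusted p = 0.831).

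A further 30 genes of the pathways around the cycle were listed beside the 31, and 27 were tested; Slc25a18, Slc25a21 and Pck1 did not pass the filter. The called genes were the alanine aminotransferases, which exchange the amino group between alanine and 2-oxoglutarate. Gpt2, the mitochondrial form, lay between 45.8 and 53.4 cpm in WT and between 34.4 and 40.1 cpm in cmGch1 KO libraries (log2 fold change -0.37, standard error 0.065, edgeR adjusted p = 0.0114). Gpt, the cytosolic form, lay between 39.5 and 43.3 cpm in WT and between 28.7 and 36.7 cpm in cmGch1 KO libraries (log2 fold change -0.31, standard error 0.0672, edgeR adjusted p = 0.0417). Neither overlapped between the genotypes, and 2 of 27 (7.41%) were called lower, where 0.445% of all tested genes were. Because the further genes were chosen with earlier results of these data known, their shares beside all tested genes describe them and test nothing.

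Without both high-Xist libraries the edgeR adjusted p was 0.0995 for Gpt2, at a log2 fold change of -0.35, and 0.223 for Gpt, at -0.24. Gpt2 kept an adjusted p under 0.05 when any library was left out in turn, whereas Gpt kept it without cmGch1 KO replicate 1 or 4 and lost it without each of the other 10, at up to 0.123. At an unadjusted p under 0.05, 5 of the 27 (18.5%) were lower, against 4.51% of all tested genes. They were Gpt, Gpt2, the glutamate dehydrogenase Glud1 (-0.23) and the propionyl-CoA carboxylase subunits Pcca (-0.26) and Pccb (-0.27). Of the 27, 1 gene (3.7%), the argininosuccinate lyase Asl (0.31), was higher, against 7.01% of all tested genes. The glycerol phosphate shuttle, the other route for cytosolic NADH, had log2 fold changes from -0.04 to 0.14 over its 3 genes and none at that p, and the 4 assembly factors of succinate dehydrogenase had log2 fold changes from -0.17 to -0.02, likewise none.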

How the data were processed

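RNA from the left ventricle of 6 WT and 6 cmGch1 KO mice was sequenced, and genotype and replicate number were taken from the sample labels. The authors deposited raw counts per Ensembl gene, made from stranded (dUTP) paired-end reads with HISAT2, Picard and featureCounts; the submitters' processing notes name HISAT2, SAMtools and GRCm38, while the gene annotation and whether counting used strand are not given in the sources used here. The authors also deposited normalized values on a log2-like scale, whose tool is not stated. Of 26921 identifiers, 98.7% had a symbol in GENCODE M21. No libraries of a genotype were copies (chi-square per degree of freedom 12.5 or more in 30 pairs).

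Counts were analysed with edgeR 4.0.16 in R 4.3.3: TMM factors, a filter that kept genes whose cpm exceeded 3 in 6 or more libraries, a quasi-likelihood test of genotype without covariates, and Benjamini-Hochberg adjustment over 11225 genes at an FDR of 0.05. The study's methods name edgeR, that cpm minimum and that FDR, but no test. Log2 cpm used a prior count of 2. Exact permutation tests were two-sided over 924 assignments of the libraries (smallest p 0.00216). For single genes and marker sums these p values were not adjusted. Groups without overlap always give the smallest p, so it adds nothing to the lack of overlap. Isoform ratios used counts per union of exons, and their p values were adjusted over 10 pairs, of which 9 are given and 1 is not reported here. The alternatives were the size factors and the Wald test of DESeq2 1.42.0, scaling by library size alone, leaving out the mitochondrially encoded genes, no filter, filterByExpr, a block for the replicate number, a covariate of sex-linked expression (Xist minus Y-linked genes), leaving out both high-Xist libraries, limma 3.58.1 on the deposited log2 values, leaving out each library, adding 0.5 counts for ratios, and, chosen after seeing the data, leaving out both libraries numbered 1. The fits were tested on simulated data. Each library was taken as 1 mouse, since the study's methods count the animal as the unit.

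The 31 genes, the further 30 genes and the marker lists were chosen with earlier results of these data known. All 31 genes are accounted for; genes outside them are named where they had an FDR under 0.05, complete a pair, check the samples, or, as stated or as counts of 5 or fewer, after their values were seen. Idh3b, Sucla2, Mdh1, Slc25a11 and Pcx overlap tested genes on the opposite strand, so their counts could include reads of those genes, or the reverse, if strand was not used. Reads of Got2 could be shared with its pseudogene Got2-ps1, so its value is uncertain to that extent.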

Additional observations from a re-analysis of the deposited data

Results flagged for a closer look

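In each group of 6 libraries, the highest or lowest value was examined for a gap to the nearest other value of over 0.625 of the whole range. Of 82 groups, 7 passed, where chance gives about 4.1. In WT replicate 1, Mdh2 was at 1220 cpm against 1090 to 1100 cpm in the other 5 WT libraries, and Me3 was at 105 cpm against 83.1 to 88.9 cpm. In cmGch1 KO replicate 1, Sdhc was at 622 cpm against 427 to 473 cpm in the other 5 cmGch1 KO libraries, Sdhd at 656 cpm against 381 to 478 cpm, and Slc25a11 at 529 cpm against 411 to 435 cpm. In cmGch1 KO replicate 6, Ogdhl was at 59 cpm against 2.72 to 6.45 cpm, and the log2 ratio of Ogdh to Ogdhl was 4.83 against 7.79 to 9.04. Every value that passed this rule was thus in a replicate 1 or was of Ogdhl. A rule for single end values cannot flag several libraries that stand together. For Sdhd, WT replicates 1, 3 and 4 did so, at 604, 571 and 621 cpm against 392 to 445 cpm in the other WT libraries.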

How the results depend on the processing

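Under the 23 alternatives no gene of the 31 was called higher, 1 gene was higher at an unadjusted p under 0.05 in each, and 26 of the 31 kept their direction throughout. The number called lower was 0 with scaling by library size alone, without a low-count filter, with the sex-linked covariate and without both high-Xist libraries, 2 with both libraries numbered 1 left out (Me3, Slc25a13), 4 by DESeq2 (Dlst, Me3, Slc25a13, Suclg2; 155 and 218 genes lower and higher in all) and 0 to 2 with each library left out. The number lower at an unadjusted p under 0.05 was 2 with library size alone, 4 with the covariate, 4 without the high-Xist libraries and 6 to 13 with each library left out. The median log2 fold change was -0.0559 with library size alone, where the median of all genes was 0.066 against -0.0095, and 23.7% rather than 39.7% of all calls were lower. Of the further genes, 1 was called with library size alone, 5 by DESeq2, 1 without a filter, 0 with the covariate, 0 without the high-Xist libraries and 1 to 3 with each library left out.

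Direction was reversed with library size alone for Aco1 (0.0355), Idh3a (0.0144), Dld (0.00313), Mdh1 (0.0476) and Got1 (0.0393), without the high-Xist libraries for Aco1 (0.00483) and the ratio Got1/Got2 (-0.0231), and with the libraries numbered 1 left out for Got1 (0.000897). With each library left out, the range was -0.058 to 0.00599 for Mdh1, -0.108 to 0.0392 for Idh1/Idh2, -0.0242 to 0.0271 for Sucla2/Suclg2 and -0.516 to -0.387 for Me1/Me2. The cause was not tested. All genes called between the genotypes without the high-Xist libraries numbered 18 lower and 16 higher.

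With the replicate number as a block 2 genes (Me3, Slc25a13) were called lower, and the adjusted p was 0.104 for the ratios Me1/Me2 (-0.455) and Slc25a12/Slc25a13 (0.163), in a sign-flip test that cannot give a p below 0.03125 with 6 pairs. The numbers were not shown to pair the libraries. For numbers 1, 5 and 6 the deviations of same-numbered libraries correlated at 0.676, 0.401 and 0.509, each the best match among the cmGch1 KO libraries. For numbers 2, 3 and 4 they correlated at -0.0945, -0.0775 and -0.128, and another number matched best. Whether same-numbered libraries were handled together was not tested. With the libraries numbered 1 left out these ratios were -0.495 and 0.163, both with an adjusted p of 0.0794, where 0.00794 is the smallest exact p before adjustment. Depth, 59 counts or more of every gene in every library, limits Ogdhl, Me2 and Pck2 most.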
